A study of Saccharomyces cerevisiae with 37 samples.

Results

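The comparison described here is the second phase of the wild-type copper time course in the budding yeast Saccharomyces cerevisiae. It sets the 4 wild-type libraries taken at 25 and 30 min after copper addition against the 4 wild-type libraries taken at 15 and 20 min. These 8 of the 37 samples of the series were chosen by strain and time label alone, and no library from 0 min entered the comparison. All were haploid MAT A cells of strain BMY1051, BY4741 background, genotype WT. Per the labels, cultures were grown in rich medium (YPD), washed, moved to copper-free minimal medium, and given copper sulfate about 2 h later. The treatment note gives 500 uM and the growth note gives 500 mM, and the unit was not settled here. Each time had replicates 1 and 2, read here from the growth note as cultures 1 and 2 sampled repeatedly. Effects of copper and of time in the new medium cannot be told apart, because every later sample had received copper. The 4 libraries of a group therefore come from 2 cultures at 2 times, not from 4 cultures. The strain used for reference is BMY3661, of the same background and treatment, labelled with a 25x gene array of GFA1, the enzyme that makes glucosamine 6-phosphate for chitin. RNA was measured by 3'-end sequencing (Lexogen QuantSeq), which gives 1 read near the end of a transcript, and levels are gene counts scaled to a common library size (CPM).

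Yeast cells answer damage to proteins through the transcription factor Hsf1, which binds heat shock elements and drives genes for chaperones such as the Hsp70 and Hsp90 families. Copper ions in excess bind thiols and can damage proteins, and yeast limits them with metallothioneins and with lower copper uptake. Copper is also needed for iron uptake, because the oxidase Fet3, which works with the permease Ftr1, carries copper.

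The 8 libraries held 495404 to 630994 gene counts and detected 5582 to 5641 genes, and 3 counts in a library corresponded to 4.64 to 5.49 CPM. The a-cell receptor STE2 lay at 18.3 to 56.0 CPM and the a-factor gene MFA2 at 93.0 to 159 CPM. The alpha-cell receptor STE3 had 2 counts over all 8 libraries and the alpha-factor genes MF(ALPHA)1 and MF(ALPHA)2 had 1 and 0. URA3 and MET17, which are deleted in BY4741, had 0 counts, and LEU2, also deleted there, had 11, all in culture 2. The label of mating type and background was met by these markers other than LEU2, but not by all that were examined. The alpha-cell agglutinin gene SAG1 was measured at 20.1 to 38.5 CPM, and HIS3, also mutated in BY4741, at 99.4 to 174 CPM.

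The 25 min library of culture 1 stood apart from the others. Its median correlation of log2 CPM with the other 7 was 0.941, against 0.965 to 0.974 for the rest, with a pseudocount of 5 CPM. At 25 min, 468 of 4948 tested genes differed at least 2-fold between the cultures, 381 of them lower in culture 1, whereas 92 to 201 did so at the other wild-type times. The median log2 difference of culture 1 minus culture 2 at 25 min was -1.93 for histone genes and -0.83 for glycolytic genes, and the mating pheromone gene MFA1 was at 22.0 CPM in culture 1 against 171 CPM in culture 2. GFA1 was at 211 CPM in that library, within the wild-type range. It also had the lowest gene count of the 8 and the highest share of reads aligned at several places, 13.7% against 10.9% in the lowest. Counts, list medians and calls that it moved are given below also without it.

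**Figure D1:**
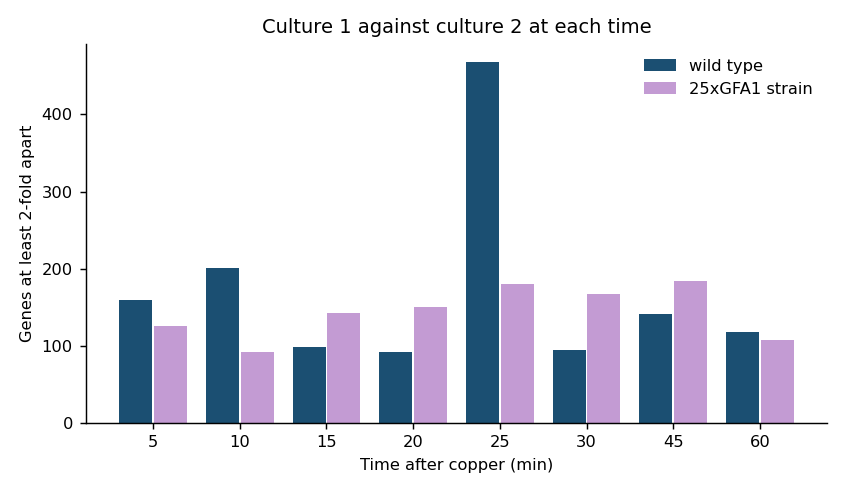
Number of genes (vertical axis) that differed at least 2-fold between cultures 1 and 2 at each time after copper (horizontal axis, min), for wild type (dark) and the 25xGFA1 strain (light). Wild type at 25 min reached 468 genes, against 92 to 201 at its other times.

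The question asked by the comparison is which transcripts still moved in wild-type cells between 15-20 and 25-30 min after copper. Few were called by the test given below, which does not show that few moved. At 25 min, 468 genes differed at least 2-fold between the cultures, and a gene that misses the threshold may still have moved. The chaperone genes SSA4, BTN2 and HSP82 rose, as did the glucan synthase gene GSC2, the daughter-cell glucanase gene DSE4 and the iron permease gene FTR1, and the arginase gene CAR1 fell. SSA4 and BTN2 changed by more than 2-fold, and the other 5 by less. Calls rest on edgeR's quasi-likelihood test with a threshold of 0.05 on the Benjamini-Hochberg adjusted p, and 7 of 4948 genes (0.141%) were called, 6 higher (0.121%) and 1 lower (0.0202%). At an unadjusted p under 0.05 there were 349 genes, 202 higher and 147 lower. DESeq2's Wald test called 4 genes, BTN2, FTR1, HSP82 and SSA4. Without the 25 min library of culture 1, 10 of 5042 genes (0.198%) were called, 9 higher (0.179%) and 1 lower (0.0198%): SSA4, BTN2, HSP82, GSC2 and CAR1 remained, FTR1 and DSE4 were lost, and CCC2, HSP42, NIS1, OPT1 and MLO50 were added. Without the 25 min library of culture 2 instead, 196 of 5037 genes (3.89%) were called, 52 higher (1.03%) and 144 lower (2.86%), so that the count of called genes depended on which 25 min culture was used.

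**Figure D2:**
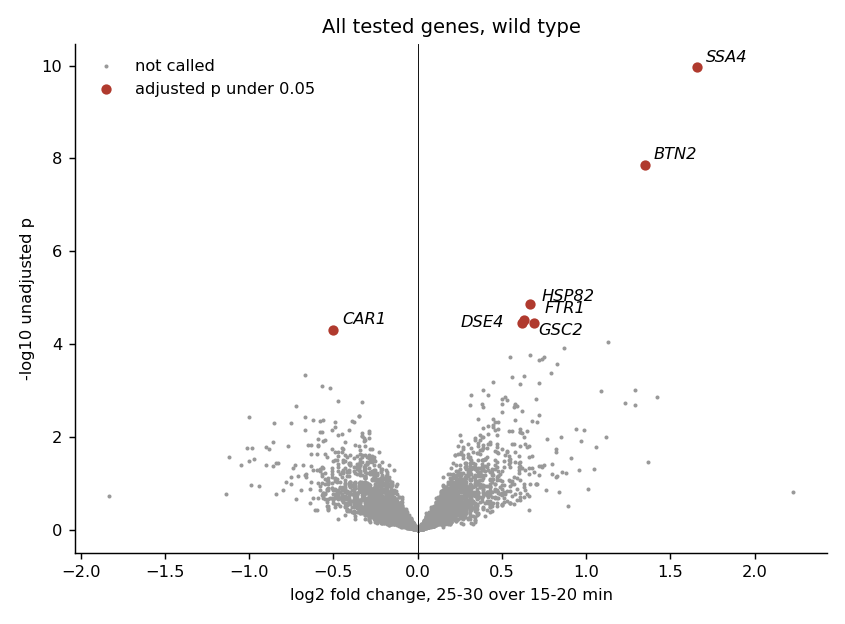
Log2 fold change of 25-30 over 15-20 min (horizontal axis) against −log10 of the unadjusted edgeR p (vertical axis) for 4948 genes in wild type. The 7 called genes are named, and SSA4 (1.66) and BTN2 (1.35) lie farthest from the rest.

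SSA4 encodes a stress-inducible cytosolic Hsp70. In cultures 1 and 2, its level at 15 min was 98.7 and 94.9 CPM. At 20 min it was 148 and 145 CPM, at 25 min 342 and 294 CPM, and at 30 min 385 and 517 CPM. Every later library was above every earlier one, and the cultures stood close together up to 25 min. The mean went from 122 ± 28.9 CPM to 385 ± 95.5 CPM (SD, n = 4 each), a 3.17-fold rise with a log2 fold change of 1.66 (SE 0.16, adjusted p = 5.33e-07, edgeR). The rise held in all 22 alternative analyses and was 1.61 without the 25 min library of culture 1 (adjusted p = 1.83e-06, edgeR). SSA4 sits on chromosome V, at 364589 to 366517 in build R64. Hsp70 genes have close relatives, and reads aligned at several places are absent from the counts. In such bulk samples, more cells with a transcript and more of it per cell cannot be told apart.

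BTN2, on chromosome VII at 772454 to 773686, encodes a factor that gathers misfolded proteins into deposits for later refolding. Its levels were 122 and 108 (15 min), 192 and 247 (20 min), 317 and 405 (25 min) and 371 and 541 CPM (30 min). Culture 2 was the higher from 20 min on, and the groups did not overlap. The mean rose from 167 ± 64.4 to 408 ± 95.4 CPM (SD, n = 4 each), 2.55-fold, with a log2 fold change of 1.35 (SE 0.16, adjusted p = 3.41e-05, edgeR). The call held in 20 of 22 alternatives and was lost with the 8 libraries as 2 groups of 4 (1.29, adjusted p = 0.193) and at 30 against 20 min alone (1.05, adjusted p = 0.0936).

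HSP82, on chromosome XVI at 96496 to 98625, encodes the inducible Hsp90. It stood at 810 and 664 (15 min), 1164 and 917 (20 min), 1366 and 1239 (25 min) and 1318 and 1646 CPM (30 min). The highest earlier library, culture 1 at 20 min, was just under the lowest later one, culture 2 at 25 min. The log2 fold change was 0.67 (SE 0.12, adjusted p = 0.0231, edgeR), with means of 889 ± 211 and 1392 ± 177 CPM (SD, n = 4 each). This call held in 12 of 22 alternatives. It was lost without culture 2 at 15, 20 or 30 min (adjusted p up to 0.299, edgeR), without culture 2 altogether (0.47, adjusted p = 0.524), in fits on other sets of libraries (0.229 to 0.668) and in either pair of times alone (0.147 and 0.760). HSC82, the constitutive Hsp90 with a nearly identical coding sequence, went from 3394 to 3072 CPM on average (log2 fold change -0.14, adjusted p = 0.711, edgeR), and reads aligned at several places were not in the gene counts.

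Promoters of these chaperone genes hold heat shock elements, and the sites are shown because 3 of the 7 called genes carry one. The 300 bases before each coding start were searched on both strands for TTCNNGAA, which is its own reverse complement. It occurs in 13.1% of 5993 promoters, in 21 of the 33 promoters of the Hsf1 chaperone list described next, and in those of SSA4, BTN2 and HSP82 among the called genes. The reference sequence is R64, read along the gene's strand, with the element in capitals. The SSA4 site is at chrV:364325-364354 on the plus strand, the first base of the element 253 bases before the start codon. The BTN2 site is at chrVII:772364-772393 on the plus strand, 79 bases before. The HSP82 sites are at chrXVI:98842-98871 and chrXVI:98674-98703 on the minus strand, 235 and 67 bases before.
SSA4: aatgaagtacaTTCTAGAAgttcctagaac
BTN2: atattttcttcTTCTTGAAagaaatatcag
HSP82 distal: ttttcttttttTTCTAGAAcgccgtggaag
HSP82 proximal: ctgtattagagTTCAAGAAatcatacctga
A match is a description of these letters and not a measure of binding. The stress response element AGGGG, found in 22.2% of promoters, was in those of SSA4, HSP82 and CAR1.

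The list of Hsf1-driven chaperone genes was drawn up as known targets and so is not independent of the motif. It held 33 tested members, of which 3 were called higher and none lower, beside 0.121% and 0.0202% of all genes. At an unadjusted p under 0.05, 14 members were higher and none lower, against 202 and 147 of all 4948 genes. The median log2 fold change was 0.18, and 0.29 without the 25 min library of culture 1, with 0.00 over all tested genes in both. All 4 later libraries lay above all 4 earlier ones for 9 members, which is 27.3% against 2.32% of all genes, and below for 1, HSC82, against 1.37%. Without the 25 min library of culture 1 these counts were 12 and 1, beside 3.72% and 3.15% of all genes. The members not called included the Hsp70 SSA3, at 46.6 to 58.6 CPM and then 81.4 to 107 CPM (log2 fold change 0.75, adjusted p = 0.0779). The Hsp110 exchange factor SSE2 had 0.55 and the Hsp70 exchange factor FES1 0.67, with the same adjusted p in edgeR. The small heat shock proteins HSP42 and HSP26 had log2 fold changes of 0.63 and 0.99 (adjusted p = 0.132 and 0.438, edgeR), HSP26 from only 27 counts in the earlier 4 libraries. Not all members lay higher. The constitutive Hsp70s SSA1 and SSA2 had -0.27 and -0.50 (adjusted p = 0.922 and 0.853, edgeR), and 0.16 and -0.06 without the 25 min library of culture 1. The mitochondrial Hsp70 SSC1 had -0.20 (adjusted p = 0.871), and -0.01 without it. The disaggregase HSP104 went from 456 to 661 CPM on average (adjusted p = 0.627, edgeR). The Hsp90 co-chaperones AHA1 and STI1 had 0.39 and 0.31 (adjusted p = 0.187 and 0.663). Summed over the list, the level was 14860 to 15470 CPM in the earlier libraries and 15250 to 17820 CPM in the later ones. The sums overlapped through culture 1 at 25 min, at 15250 CPM.

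**Figure D3:**
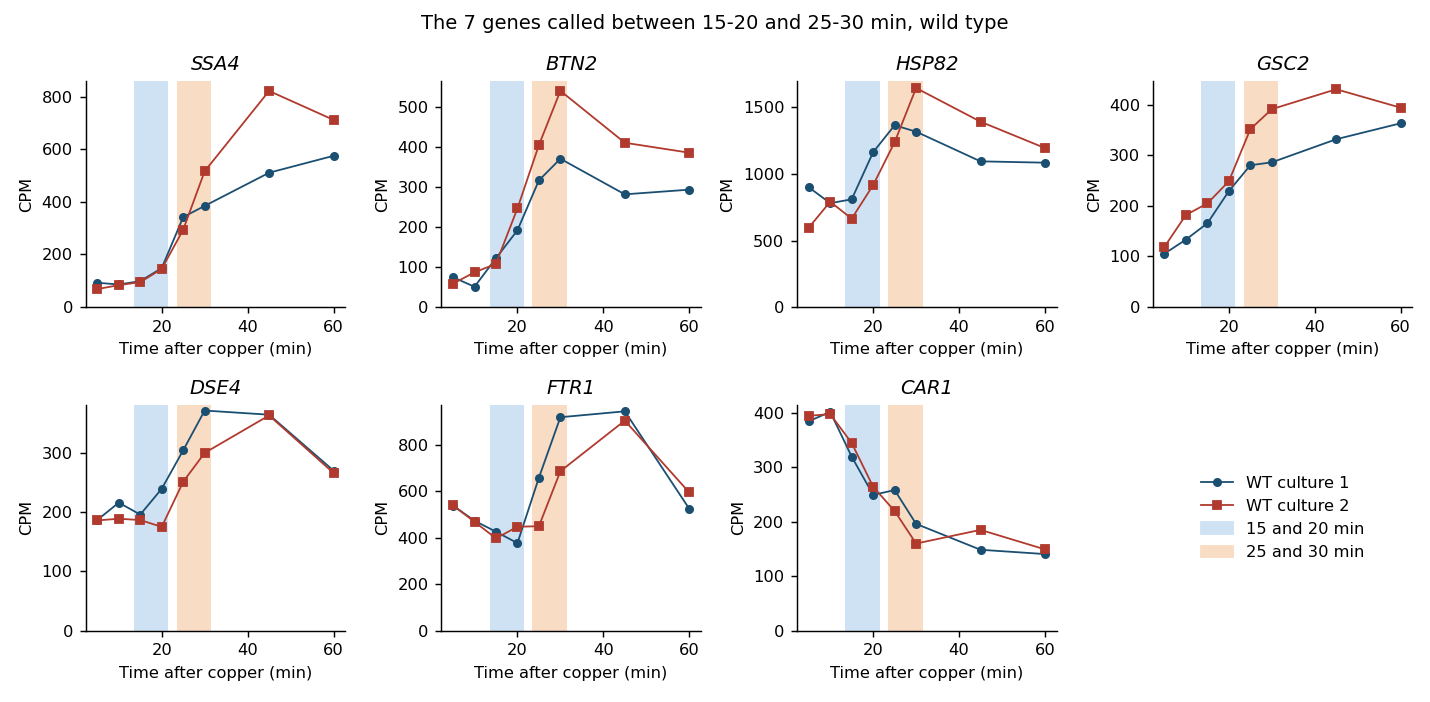
CPM (vertical axis) of the 7 called genes in wild-type cultures 1 (circles) and 2 (squares) from 5 to 60 min after copper (horizontal axis), with the 15-20 min and 25-30 min windows shaded. SSA4 rose from 96.8 CPM at 15 min to 451 CPM at 30 min on average, and CAR1 fell from 332 to 178 CPM.

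No single step of 5 min gave a call at this depth. From 15 to 20 min, 20 to 25 min and 25 to 30 min, with 2 libraries a side, edgeR called 0 genes each, with at most 220 at an unadjusted p under 0.05. SSA4 gained 0.60, 1.11 and 0.50 on the log2 scale over these steps. BTN2 gained 0.93, 0.72 and 0.33, its largest step being the earliest one. FTR1 was at 0.00, 0.43 and 0.54. Taken alone, 25 against 15 min called SSA4 and BTN2 (0.0404% of genes), and 30 against 20 min called SSA4 and CCC2 (also 0.0404%).

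In the neighbouring phases, which share libraries with this one, the values of the called genes stood as follows. From 5-10 to 15-20 min, BTN2 had already risen by 1.22 on the log2 scale (adjusted p = 0.00373, edgeR) and GSC2 by 0.66 (adjusted p = 0.0317), while SSA4 had 0.53 (adjusted p = 0.303), HSP82 0.19 (adjusted p = 0.783) and DSE4 0.04 (adjusted p = 0.977). FTR1 had -0.29 there (adjusted p = 0.634, edgeR), its mean being 539 CPM at 5 min, 412 CPM at 15 min and 555 CPM at 25 min. Cultures 1 and 2 were at 539 and 540 CPM at 5 min. At 25 min they were at 659 and 450 CPM, on either side of the 5 min level. From 25-30 to 45-60 min, SSA4 rose by a further 0.79 (adjusted p = 0.000185, edgeR), and BTN2 and HSP82 had -0.24 and -0.22 (adjusted p = 0.281 and 0.208). GSC2, FTR1 and DSE4 had 0.22, 0.11 and 0.03 (adjusted p = 0.215, 0.610 and 0.884). CAR1 fell in both, by 0.43 (adjusted p = 0.0485) and by 0.41 (adjusted p = 0.00859). Over all genes, edgeR called 25 of 4948 (0.505%), 9 higher (0.182%) and 16 lower (0.323%), in the earlier phase and 1059 (21.4%), 521 higher (10.5%) and 538 lower (10.9%), in the later one.

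GSC2, also called FKS2, on chromosome VII at 548264 to 553951, encodes an alternative catalytic subunit of the glucan synthase that builds the cell wall. It lay at 166 and 205 (15 min), 229 and 249 (20 min), 280 and 351 (25 min) and 286 and 391 CPM (30 min). All later libraries were above all earlier ones, and culture 2 was the higher at each of these times. The log2 fold change was 0.63 (SE 0.13, adjusted p = 0.0298, edgeR) from a mean of 212 ± 35.7 to 327 ± 53.4 CPM (SD, n = 4 each). The call held in 8 of 22 alternatives and was lost without either culture at 15 or 20 min and without culture 2 at 30 min (adjusted p up to 0.284, edgeR), and the adjusted p reached 0.832 at 30 against 20 min alone. TIM21, on the opposite strand within 300 bases of the 3' end of GSC2, had 305 counts over the 8 libraries, and the strand setting of the counting is not given in the sources used here. Of the 39 tested members of the cell wall integrity list, GSC2 was called higher (0.121% of all genes were) and none lower. The median log2 fold change was -0.08, and -0.02 without the 25 min library of culture 1. GAS3, a protein of the glucan-remodelling Gas family, had a log2 fold change of -0.57 (adjusted p = 0.173, edgeR) with every later library below every earlier one. The chitin transglycosylase gene UTR2 had -0.41 (adjusted p = 0.438).

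DSE4, on chromosome XIV at 755746 to 759099, encodes an endoglucanase made in daughter cells to split the septum. Its levels were 196 and 187 (15 min), 239 and 175 (20 min), 304 and 251 (25 min) and 371 and 300 CPM (30 min). Culture 1 was the higher at every one of these times, and the groups did not overlap. The log2 fold change was 0.62 (SE 0.12, adjusted p = 0.0298, edgeR), and without the 25 min library of culture 1 it was 0.55 and not called (adjusted p = 0.109). The call was also lost without either culture at 15 min, culture 2 at 20 min or culture 1 at 30 min (adjusted p up to 0.341, edgeR). It held in 8 of 22 alternatives, and the adjusted p reached 0.760 at 25 against 15 min alone. Of the 23 tested genes of the M/G1 and cell separation list, DSE4 was called (0.121% of all genes were called higher), and 7 were higher and none lower at an unadjusted p under 0.05, against 202 and 147 of all 4948. All 4 later libraries lay above all 4 earlier ones for 2 members (8.70% against 2.32% of all genes), and below for none. The count above was 3 (beside 3.72% of all genes) without the 25 min library of culture 1. The median was 0.25, and 0.33 without that library. ASH1, a daughter-cell repressor, went from 109 to 154 CPM (log2 fold change 0.50, adjusted p = 0.228, edgeR), and SIC1, the inhibitor of cyclin-dependent kinase, from 110 to 159 CPM (0.53, same adjusted p). Of the 23 members, 17 had a positive log2 fold change. EGT2, DSE1, DSE3 and SUN4 had 0.28, 0.40, 0.52 and 0.20 and were not called. Some septum genes had negative values: the chitinase CTS1 -0.45, the glucanase-family genes DSE2 and SCW11 -0.42 and -0.12 (adjusted p = 0.717, 0.895 and 0.962, edgeR). These were -0.19, 0.02 and 0.10 without the 25 min library of culture 1.

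FTR1, on chromosome V at 460526 to 461740, encodes the plasma membrane iron permease. It lay at 427 and 398 (15 min), 377 and 448 (20 min), 659 and 450 (25 min) and 919 and 687 CPM (30 min). Culture 2 at 25 min was only just above the highest earlier library, so that the separation of the groups was narrow there. The mean went from 413 ± 31.1 to 679 ± 192 CPM (SD, n = 4 each), a log2 fold change of 0.69 (SE 0.14, adjusted p = 0.0298, edgeR). Without the 25 min library of culture 1 it was 0.55 and not called (adjusted p = 0.132), and it was not called without any one of the 4 earlier libraries or culture 1 at 30 min either (adjusted p up to 0.251, edgeR). Without culture 1 altogether it was 0.42 (adjusted p = 0.745). The call held in 9 of 22 alternatives, and the adjusted p reached 0.871 at 25 against 15 min alone.

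The promoter of FTR1 holds the letters GCACCC, the core bound by the iron regulator Aft1, which occur in 4.07% of the 5993 promoters on either strand. In all, 11 motifs were searched for in the promoters. DSE4 alone of the called genes had CACGAAA, found in 4.51% of promoters. HSP82 alone had GATGAG, found in 19.1%. Likewise, FTR1 alone of the called genes has GCACCC, and that site is shown here. It lies at chrV:461897-461926 on the minus strand in R64, its first base 174 bases before the start codon, with the core in capitals.
FTR1: gcgtagatgaatGCACCCgatttctaagtt
As for the chaperones, the match says nothing about binding.

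Among 21 tested genes of the iron uptake list, FTR1 was called (0.121% of all genes were called higher), and 9 were higher and 1 lower at an unadjusted p under 0.05, against 202 and 147 of all 4948. All 4 later libraries lay above all 4 earlier ones for 3 members (14.3% against 2.32% of all genes), and below for none. The count above was 5 (beside 3.72% of all genes) without the 25 min library of culture 1. The median log2 fold change was 0.37, and 0.38 without that library. The list's median was -0.13 from 15 to 20 min, 0.26 from 20 to 25 min and 0.51 from 25 to 30 min. FET3, the multicopper oxidase paired with Ftr1, was at 320 to 438 CPM in the earlier libraries, at 359 and 395 CPM at 25 min, and at 709 and 505 CPM at 30 min (log2 fold change 0.37, adjusted p = 0.464, edgeR). CCC2, the ATPase that loads copper into Fet3, is in the copper uptake list here. It lay at 78.6 and 81.6 (15 min), 77.5 and 84.0 (20 min), 76.9 and 106 (25 min) and 193 and 200 CPM (30 min). Both 30 min libraries stood above all others, and culture 1 at 25 min was below all 4 earlier ones. Over the pooled groups the log2 fold change was 0.74 (adjusted p = 0.0779, edgeR), and 30 against 20 min alone gave 1.28 (adjusted p = 0.0162). CCC2 was singled out after its values were seen. The vacuolar iron importer CCC1 went from 99.7 to 73.6 CPM (log2 fold change -0.44, adjusted p = 0.663, edgeR).

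CAR1, on chromosome XVI at 339944 to 340945, encodes arginase and was the 1 gene called lower. It was at 320 and 345 (15 min), 249 and 264 (20 min), 258 and 220 (25 min) and 196 and 160 CPM (30 min). The groups overlapped, because culture 1 at 25 min was above culture 1 at 20 min. The mean went from 295 ± 45.1 to 209 ± 41.2 CPM (SD, n = 4 each), a log2 fold change of -0.50 (SE 0.10, adjusted p = 0.0349, edgeR), and the call held in 7 of 22 alternatives. It was lost without any one of the 4 earlier libraries and without culture 2 at 30 min (adjusted p up to 0.299, edgeR). The adjusted p reached 0.663 with only the 8 libraries, and without culture 2 altogether the value was -0.33 (adjusted p = 0.583). The 3' end of CAR1 faces GDE1 on the opposite strand within 300 bases, the same strand limit as for GSC2. GDE1 had 766 counts over the 8 libraries, against 697 and 488 for CAR1 in the earlier and later group.

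The other genes with the smallest p among those that went lower were not called. DUR12, the urea amidolyase that follows arginase in arginine breakdown, was at 898 to 1017 CPM and then at 539 to 787 CPM, without overlap (log2 fold change -0.47, adjusted p = 0.239, edgeR). VHC1, a vacuolar cation-chloride transporter, was at 52.2 to 73.3 CPM and then at 34.0 to 45.0 CPM (-0.67, adjusted p = 0.132). ABD1, on the opposite strand within 300 bases of its 3' end, had 387 counts over the 8 libraries. ADH5, an alcohol dehydrogenase, was at 121 to 165 CPM and then at 83.4 to 111 CPM (-0.52, adjusted p = 0.181). Of 26 tested genes of the nitrogen catabolite list, which holds CAR1 and DUR12, 1 was called lower (0.0202% of all genes were) and none higher. The median was -0.15, and -0.08 without the 25 min library of culture 1.

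None of the sulfur and methionine genes was called. Of 27 tested members, 11 were higher and none lower at an unadjusted p under 0.05, 6 lay wholly above the earlier libraries (22.2% against 2.32% of all genes), and the median log2 fold change was 0.42. The count wholly above was 12 (beside 3.72% of all genes) and the median 0.38 without the 25 min library of culture 1. At an unadjusted p under 0.05 there were 202 higher and 147 lower of all 4948 genes. MET1, needed for the siroheme of sulfite reductase, was at 33.3 to 47.3 CPM and then at 51.9 to 71.1 CPM (log2 fold change 0.79, adjusted p = 0.132, edgeR). MET2, homoserine acetyltransferase, was at 6.66 to 11.8 CPM and then at 14.7 to 27.6 CPM (1.29, adjusted p = 0.187), from 21 counts in the earlier group. The S-adenosylmethionine permease SAM3 went from 434 to 579 CPM and the methionine permease MUP1 from 332 to 456 CPM (adjusted p = 0.213 and 0.162). The list had a median of 0.31 in culture 1 and 0.27 in culture 2.

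General stress genes, the targets of Msn2 and Msn4, had a median log2 fold change of 0.24 over 30 tested members with none called. At an unadjusted p under 0.05, 8 were higher and 1 lower, against 202 and 147 of all 4948, and 6 lay wholly above the earlier libraries (20.0% against 2.32% of all genes). The count was 9 (beside 3.72%) and the median 0.30 without the 25 min library of culture 1. The list shares HSP26 and HSP42 with the chaperone list. ALD3, an aldehyde dehydrogenase, was at 108 to 140 CPM and then at 185 to 229 CPM (0.72, adjusted p = 0.0779, edgeR). The catalase gene CTT1 went from 199 to 255 CPM (0.36, adjusted p = 0.551), and GPD1, of glycerol synthesis, from 251 to 196 CPM (-0.36, adjusted p = 0.700).

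The growth-related lists had no called member, and their small medians moved with the 25 min library of culture 1. Ribosomal protein genes had medians of -0.13 (large subunit, 81 genes) and -0.14 (small subunit, 56 genes), and 0.01 in both without that library. Histone genes (10) went from -0.28 to 0.07 and glycolytic genes (21) from -0.17 to 0.06. The 88 ribosome assembly genes had a median of -0.05, and -0.17 without it, with 0.13 in culture 1 and -0.24 in culture 2. Proteasome genes (36) had 0.04, chitin and hexosamine genes (12) 0.03, and trehalose and glycogen genes (20) 0.14, none with a called member, and 0.02, 0.02 and 0.20 without that library.

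**Figure D4:**
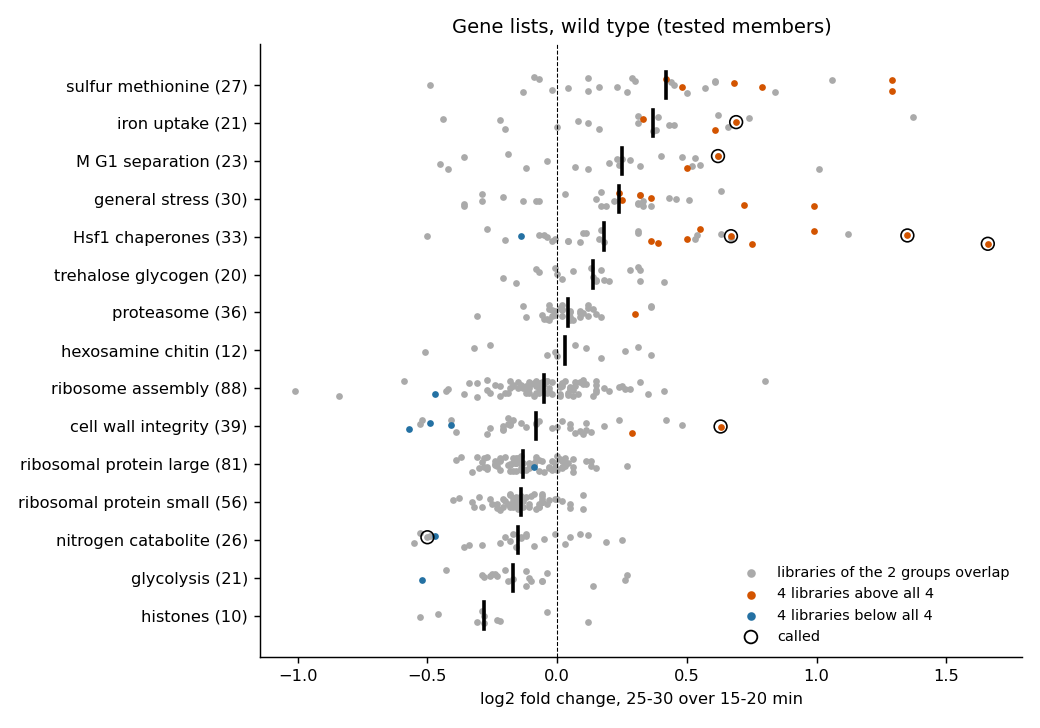
Log2 fold change of 25-30 over 15-20 min (horizontal axis) for the tested members of 15 gene lists in wild type, number tested in parentheses. Thick bars are list medians, the dashed line is the median of all tested genes, orange and blue points have all 4 later libraries above or below all 4 earlier ones, and circles mark called genes. Sulfur (0.42) and iron (0.37) genes have the highest medians among these lists.

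Copper-handling genes were not called in this window. The metallothionein genes CUP1-1 and CUP1-2 had 0 counts in all 8 libraries. They are near-identical copies and overlap other annotated features, and reads aligned at several places are not in the counts; why they had 0 was not tested, and their level is unknown here. CRS5, a metallothionein gene annotated as a pseudogene in the reference used here, went from 87.3 to 120 CPM (log2 fold change 0.46, adjusted p = 0.356, edgeR). Its groups did not overlap. The superoxide dismutase SOD1 was at 3810 to 4310 CPM and then at 4431 to 5499 CPM (0.31, adjusted p = 0.239). The copper transporter CTR3 and the metalloreductase FRE1 had 0.35 and 0.55 (adjusted p = 0.914 and 0.842), and CTR1, with 5 and 7 counts, was not tested. GFA1 had 0.26 (adjusted p = 0.749).

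The 25xGFA1 strain was sampled at the same times. There edgeR called 1178 of 4948 genes (23.8%) between the same windows, 472 higher (9.54%) and 706 lower (14.3%), and the number called does not by itself show a difference between strains. SSA4 rose by 1.59 (SE 0.19) and BTN2 by 1.04 (SE 0.18) on the log2 scale in that strain, and HSP82 by 0.84. The wild-type value minus the array value was 0.07 for SSA4 (SE 0.26, adjusted p = 0.919, edgeR), 0.31 for BTN2 (SE 0.25, adjusted p = 0.544) and -0.17 for HSP82 (SE 0.18, adjusted p = 0.658). GSC2, DSE4 and CAR1 had 0.44, 0.43 and -0.64 in the array strain (adjusted p = 0.0286, 0.0167 and 0.000798, edgeR). Their differences were 0.20, 0.19 and 0.14 (adjusted p = 0.647, 0.636 and 0.690). For FTR1 the array strain had 0.17 (SE 0.14), and the difference was 0.53 (SE 0.19, adjusted p = 0.213). For VHC1 the strains had opposite signs, -0.67 and 0.34, and the difference was -1.0 (SE 0.24, adjusted p = 0.141). A p that misses the threshold does not show that the strains were alike.

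Tested directly, the change differed between strains for 1 of 4948 genes (0.0202%), SUN4, a SUN-family cell wall protein that acts in septation. It was at 26.3 to 61.6 CPM in the earlier and 36.6 to 55.4 CPM in the later wild-type libraries. In the array strain it fell, with 69.9 to 98.0 CPM in the earlier libraries and 15.3 to 29.1 CPM in the later ones, and the difference was 2.21 (SE 0.38, adjusted p = 0.025, edgeR). Over 17 alternatives the difference was 2.04 to 2.36 and the call held in 8. It was lost with all 37 libraries (adjusted p = 0.717, edgeR), with voom, without either culture number, and without wild-type culture 1 at 15 or 30 min or culture 2 at 20, 25 or 30 min. At an unadjusted p under 0.05 there were 807 genes. Without the wild-type 25 min library of culture 1, 469 of 5042 genes (9.30%) differed, 335 higher (6.64%) and 134 lower (2.66%) in wild type relative to the array strain. Without the 25 min library of culture 2 there were 0. Across the 4948 genes, the difference between cultures 1 and 2 at wild-type 25 min had a Pearson correlation of 0.662 with the array strain's change, as a description across genes that are not independent.

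**Figure D5:**
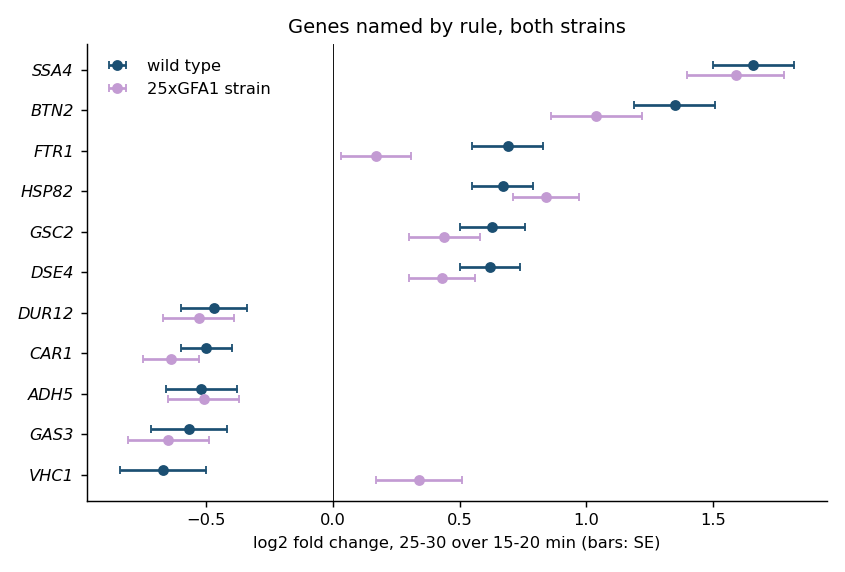
Log2 fold change of 25-30 over 15-20 min (horizontal axis) with its standard error (bars) for the 7 called genes and the 4 named genes not called, in wild type (dark) and the 25xGFA1 strain (light). SSA4 was at 1.66 and 1.59, and VHC1 at -0.67 and 0.34.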

How the data were processed

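The authors deposited raw counts of reads for 6464 genes, of which 6461 matched the R64 annotation. Per the submitters' processing notes, FastQC 0.11.9, STAR 2.7.10a, SAMtools 1.10, HTSeq 2.0.2 and build R64 were used; the strand setting is not given in the sources used here. HTSeq's summary entries were kept out of library sizes. In the 8 libraries 46.8% to 52.3% of listed reads lay in genes. No molecular identifiers are mentioned, so floors of 3 counts cover counting error only.

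Tests were edgeR 4.0.16 quasi-likelihood tests in R 4.3.3, after TMM scaling and filterByExpr with 10 as its minimum count. One fit held the 32 libraries after 0 min in 16 strain and time groups, with 16 residual degrees of freedom and a biological coefficient of variation of 13.1%. The contrast was the mean of 25 and 30 min minus that of 15 and 20 min, adjusted by Benjamini-Hochberg over 4948 genes. The script was tested on simulated counts drawn independently for each library. These held no repeated sampling of cultures and no library that stood apart, so that test does not bear on either. Alternatives used DESeq2 1.42.0, limma 3.58.1, other filters, other sets of libraries, a culture block, and libraries left out.

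Genes were named by rule: those called, with at least 10 CPM on average and groups that did not overlap, up to 12 per direction; called members of lists with at least 2 called; at least 5 per direction by smallest p; and GFA1 and copper genes. Other list members are named as examples. The 44 lists, the comparison and the rules were chosen with earlier results of these data known. Repeated sampling of cultures links the times. The p-values rest on the spread within the 16 groups of the fit, which include groups outside the 8 libraries compared. The difference between cultures correlated between the 6 pairs of times from 15 to 30 min by -0.177 to 0.363. Chi-square per degree of freedom between cultures at the same time was 1.86 to 11.7, so neither library of a time was a copy of the other. Libraries of different times or strains were not compared in this way.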

Additional observations from a re-analysis of the deposited data

Results flagged for a closer look

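The change of SUN4 differed between the strains, 2.21 on the log2 scale for wild type minus array (adjusted p = 0.025, edgeR), and the call held in 8 of 17 alternatives. DUR12 in the 15-20 min group had 1 library, culture 1 at 15 min, at 1017 CPM with the other 3 at 898 to 910 CPM. CRS5 in the 25-30 min group had 1 library, culture 2 at 25 min, at 147 CPM with the other 3 at 108 to 113 CPM. Of 46 groups of 4 libraries examined for 1 value far from the rest, these 2 were found, and chance gives about 1 in 20.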

How the results depend on the processing

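The count of called genes in the wild-type comparison was 7 (6 higher, 1 lower). It was 11 (11 and 0) without a filter on low counts, 2 (2 and 0) with all 37 libraries, with only wild-type libraries, with only the 8 libraries, with 30 against 20 min and with 25 against 15 min. It was 1 (1 and 0) with the 8 libraries as 2 groups of 4 and 4 (4 and 0) with DESeq2. With culture as a replicate block it was 9 and with voom and culture as a random effect 7; both held all 7 genes. Leaving out 1 library or 1 culture gave 2 to 196 genes, 2 to 52 higher and 0 to 144 lower. The strain difference had 1 called gene, 0 with all 37 libraries and with voom and culture as a random effect (replicate block), and 0 to 469 with 1 library or culture left out. Over 16 named genes, 273 of 348 alternative values kept direction and call, 68 lost the call, 4 gained it and 3 reversed: CTR3 (-0.05 to 0.63 with 1 library or culture left out) at -0.05 without culture 2 at 30 min and -0.07 at 30 against 20 min, and FRE1 at -0.45 at 25 against 15 min, all not called. A gene that was not called counted as keeping the call when it stayed uncalled, so the 68 losses fell on the 7 called genes. CAR1 lost its call in 15 of 22 alternatives, GSC2 and DSE4 in 14 each, FTR1 in 13, HSP82 in 10 and BTN2 in 2. SSA4 kept it in all 22. The causes were not tested. List medians ranged over the alternatives from 0.15 to 0.35 (chaperones), 0.07 to 0.66 (iron), 0.20 to 0.45 (sulfur), 0.03 to 0.40 (M/G1), 0.05 to 0.30 (general stress), -0.27 to 0.00 (cell wall), -0.26 to -0.01 (nitrogen) and -0.24 to 0.13 (ribosome assembly); the iron and sulfur medians each moved in 14 of 22. With 2 libraries per time, single steps of 5 min gave no call.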
